A study of Sus scrofa with 18 samples.

Results

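Masseter, the main muscle of chewing, was set against biceps femoris, a muscle of the thigh, in pigs at day 1 of an intensive care model. The comparison took 9 of the 18 arrays of the study, chosen by their titles as day 1 controls: 5 of masseter and 4 of biceps femoris, each a hybridisation of total muscle RNA to an Affymetrix porcine array. The samples came from 5 female piglets held under anaesthesia on a ventilator for 5 days. All of them received the neuromuscular blocker pancuronium, the corticosteroid betamethasone and an infusion of bacterial endotoxin, and both muscles were sampled again at day 5. The labels call the masseter day 1 samples untreated. For biceps femoris at day 1, the source and treatment labels name the blocker, corticosteroid and sepsis. The titles and the series text name the same samples as controls, as taken here. The breed tag names Eurasian wild boar and the protocols name domestic piglets. Per the labels the 4 thigh muscle animals were among the 5 masseter animals, but array numbers are not tied across muscles, so arrays were taken as independent.

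Limb and trunk muscles arise from somites, whereas the jaw-closing muscles arise from unsegmented head mesoderm in the branchial arches, under regulators such as TBX1, MSC and TCF21. HOX genes encode homeodomain transcription factors that are switched on in nested domains along the trunk and limbs and mark the level of the body from which a tissue comes, and the jaw lies in front of these domains. Adult muscles also differ in the mix of slow and fast fibres, each with its own isoforms of myosin and troponin, and in their balance of oxidative and glycolytic enzymes.

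The authors had normalized the muscles apart. Once sorted, the log2 values of masseter arrays lay within 0.223 of each other and those of biceps femoris arrays within 0.230, while arrays of different muscles were 0.517 or more apart at some rank. Each array was therefore turned into percentile ranks from 0 to 100 over its 23999 probe sets other than controls, and a difference is masseter minus biceps femoris in percentile points. Muscle and array batch cannot be told apart, and the control probe sets also differed between the muscles. The bacterial spike-in bioB lay at percentiles 83.5 to 89.1 on masseter arrays and 73.4 to 77.0 on biceps femoris arrays, and 28S ribosomal RNA at 93.2 to 95.0 on masseter arrays and 98.3 to 98.8 on biceps femoris arrays. The signal of actin at its 3′ end exceeded that at its 5′ end by a log2 value of 2.34 ± 0.0889 in masseter and 1.50 ± 0.154 in biceps femoris (SD). All 9 control measures passed an exact two-sided permutation test (adjusted p = 0.00893 for 8 of them and 0.0317 for bioD, smallest p possible 0.00794), and the part of batch and RNA quality in the differences below was not tested. Markers of muscle fibres stood near the top of every array: 12 genes averaged percentiles of 99.65 to 99.71 on masseter arrays and 99.71 to 99.74 on biceps femoris arrays. Such markers cannot tell 1 skeletal muscle from another. In such bulk RNA, fewer cells of a type and less RNA per cell cannot be told apart.

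The muscles differed over a large part of the array. Rank correlations (Spearman, across probe sets) were 0.978 to 0.991 between masseter arrays and 0.978 to 0.990 between biceps femoris arrays, against 0.941 to 0.959 between arrays of different muscles. Of 23999 probe sets, 43.3% were called at an adjusted p under 0.05 (limma, Benjamini-Hochberg), 24.5% higher and 18.7% lower in masseter. With the probe set of the highest mean rank standing for each of 9922 named genes, 38.6% of genes were called, 24.7% higher and 13.9% lower. A difference is called large where it was called, reached 10 percentile points and left no overlap between the arrays of the muscles. This held for 10.9% of genes, 611 higher (6.16%) and 472 lower (4.76%) in masseter. The median difference over all genes was 0.653 points. Lack of overlap alone was common: the day 1 arrays of the muscles did not overlap in 33.4% of genes and 36.7% of probe sets. Counts for gene groups below are to be read against these shares.

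HOX genes were mostly lower in masseter. Of 21 HOX genes named on the array, 13 ranked lower in masseter and 3 higher, where 13.9% and 24.7% of all genes did, and their median difference was -10.6 points against 0.653 for all genes. Of the 13, 8 were large, against 4.76% of all genes. HOXA9, a factor of the posterior trunk and limbs, stood at percentiles 10.3, 12.2, 6.95, 11.9 and 11.8 on the masseter arrays and at 94.2, 91.7, 91.9 and 91.8 on the biceps femoris arrays. It was thus among the low signals of the jaw muscle and the high signals of the thigh muscle (difference -81.7, SE 1.2, adjusted p = 4.4e-09), the widest difference of any named gene. On quantile-normalized log2 values, which place the ranks of all 9 arrays on a common log2 distribution, HOXA9 was 68.6-fold higher in biceps femoris.

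HOXA3, of the neck and anterior trunk, had percentiles of 22.9, 33.0, 19.0, 29.3 and 22.5 in masseter and 64.1, 70.6, 70.1 and 69.3 in biceps femoris (difference -43.2, adjusted p = 1.2e-05). HOXB7 had 17.2, 15.6, 14.0, 18.8 and 18.8 in masseter and 52.8, 58.0, 62.8 and 54.1 in biceps femoris (difference -40.0, adjusted p = 4.6e-06). In both genes the muscles were well apart on every array. HOXB4 averaged 8.63 ± 2.92 in masseter and 37.6 ± 3.73 in biceps femoris, and HOXA7 61.0 ± 2.53 in masseter and 83.6 ± 2.24 in biceps femoris (SD, n = 5 and 4). HOXB3 averaged 21.0 ± 1.63 in masseter and 41.9 ± 7.87 in biceps femoris, and HOXA10 64.7 ± 1.7 in masseter and 79.7 ± 2.03 in biceps femoris. HOXC9 averaged 47.1 ± 2.03 in masseter and 57.7 ± 1.07 in biceps femoris. These 5 differences, from -29.0 to -10.6 points, were also large. HOXD3 (-11.1), HOXA2 (-6.45), HOXA6 (-5.30) and HOXB5 (-4.93) were lower by less or with overlapping arrays. HOXA2 had mean percentiles of 2.78 in masseter and 9.23 in biceps femoris, near the low end of the array. HOXB5 lost its call without any of masseter arrays 1, 3, 4 and 5 or biceps femoris arrays 2, 3 and 4 (adjusted p = 0.0594 to 0.117).

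**Figure D1:**
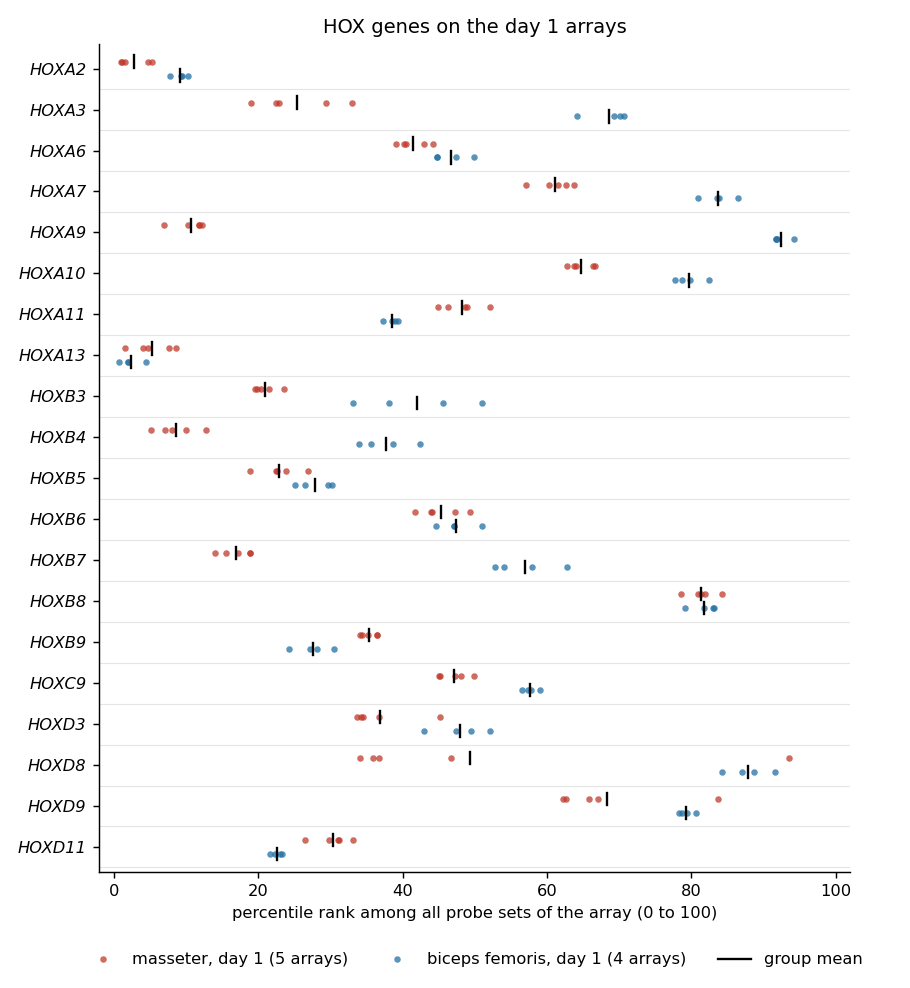
Percentile rank (0 to 100, x axis) of 20 HOX genes on each day 1 array, with 5 masseter arrays (red) drawn above 4 biceps femoris arrays (blue) and a black bar at each group mean. HOXA9, HOXA3 and HOXB7 lie far lower on all masseter arrays, HOXA11, HOXB9 and HOXD11 lie higher, and the masseter array at 93.5 in HOXD8 stands apart from the other 4.

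HOX genes are grouped by their position in the cluster. Of 16 genes of paralog groups 3 to 10, which serve the neck to the lower trunk, 12 were lower and 1 higher in masseter (median -13.0). Of 3 genes of groups 11 to 13, which pattern the outer limb and the hind end of the body, 2 were higher and 0 lower (median 7.74). Among all genes 24.7% were higher, and 3 genes are too few to give these groups a direction. HOXA11 had 52.2, 44.9, 46.3, 48.9 and 48.7 in masseter and 38.6, 39.3, 37.3 and 38.9 in biceps femoris (difference 9.68, adjusted p = 7.0e-04). HOXD11 averaged 30.3 ± 2.47 in masseter and 22.6 ± 0.755 in biceps femoris (difference 7.74), but its other probe set differed by -3.34 and was not called. The third gene that ranked higher was HOXB9, with 35.3 ± 1.13 in masseter and 27.5 ± 2.57 in biceps femoris (difference 7.76, adjusted p = 0.0012). None of these 3 genes reached the size called large.

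Several HOX genes had more than 1 probe set. Over all 33 HOX probe sets, 22 were lower and 4 higher in masseter, and 16 were large and lower against 1 large and higher. Among all probe sets, 7.59% were large and lower and 6.55% large and higher. All 6 probe sets of HOXA10 were lower, the widest of them with a mean percentile of 3.25 in masseter and 90.1 in biceps femoris (difference -86.8). The pig annotation gives most of these probe sets the older symbol HOXD10A, while their titles and human homolog name HOXA10. HOXB6 was not called by its highest probe set (45.3 ± 3.03 in masseter, 47.5 ± 2.61 in biceps femoris), yet 3 of its other probe sets were lower by 54.0, 39.3 and 22.9 points. HOXB8 did not differ by its highest probe set (difference -0.366, SE 1.3) and ranked higher by another (difference 10.2), so no direction is given for HOXB8. HOXA13 (5.33 ± 2.86 in masseter, 2.33 ± 1.58 in biceps femoris) was not called.

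Masseter array 2 stood apart in some of these genes. HOXD8 had percentiles of 34.1, 93.5, 46.6, 35.9 and 36.7 in masseter and 84.2, 87.0, 88.7 and 91.5 in biceps femoris, so that array 2 lay above every biceps femoris array and the other 4 far below them. HOXD8 was called (difference -38.5, adjusted p = 0.025), but not without any of masseter arrays 1, 4 and 5 or biceps femoris arrays 2, 3 and 4 (adjusted p = 0.0535 to 0.0586). HOXD9 had 62.6, 83.6, 65.8, 62.2 and 67.1 in masseter and 78.2, 80.6, 78.7 and 79.4 in biceps femoris. It was not called (difference -11.0, adjusted p = 0.057), and without masseter array 2 the difference was -14.8 (adjusted p = 1.3e-04). MEIS1, a homeodomain partner of HOX proteins, had 31.7, 72.7, 30.3, 26.8 and 36.7 in masseter and 54.6, 56.1, 58.6 and 58.7 in biceps femoris. Its difference was -17.4 (adjusted p = 0.14) with that array and -25.6 (adjusted p = 1.0e-04) without it. The day 5 masseter array of the same number had 36.5 for HOXD8, 58.5 for HOXD9 and 26.8 for MEIS1, near the other masseter arrays. HOXA9 on masseter array 2, at 12.2, was as low as on the other masseter arrays.

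Adipocyte markers moved with that array. Of 15 markers 13 were on the array, none at percentile 0, and they averaged a percentile of 79.1 on masseter array 2, 56.4 to 62.2 on the other masseter arrays and 65.0 to 73.2 on the biceps femoris arrays. ADIPOQ, which encodes the fat hormone adiponectin, had 80.2, 97.7, 68.7, 15.22 and 63.9 in masseter and 92.3, 96.7, 87.3 and 81.6 in biceps femoris. The part of fat in these values was not tested. Without masseter array 2, 14 HOX genes were lower and 3 higher, and leaving out any other array left 11 to 13 lower and 3 higher.

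Most regulators of head muscle and jaw mesenchyme ranked higher in masseter. Of 12 on the array 7 were higher and 1 lower (24.7% and 13.9% of all genes), with a median difference of 5.78 points. MSX1, a homeobox factor of jaw and tooth mesenchyme, had percentiles of 64.1, 59.4, 62.6, 69.4 and 64.3 in masseter and 54.3, 50.9, 52.6 and 47.3 in biceps femoris (difference 12.7, adjusted p = 0.0014). HAND2, a factor of the lower jaw arch and also of the limb bud, had 35.3, 34.0, 33.4, 34.7 and 35.9 in masseter and 22.7, 30.1, 22.4 and 20.04 in biceps femoris (difference 10.9, adjusted p = 0.0017). Neither gene had overlapping arrays, and both were large. The second HAND2 probe set was not called (26.2 ± 3.16 in masseter, 25.4 ± 2.01 in biceps femoris, difference 0.831, SE 1.72). MSC, or musculin, a repressor needed with TCF21 for chewing muscles in the mouse, had 49.9, 49.3, 45.3, 51.3 and 50.8 in masseter and 44.4, 39.5, 41.0 and 36.1 in biceps femoris (difference 9.05, adjusted p = 0.0038).

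ALX4, of the facial mesenchyme, differed by 8.42 points, PRRX2 by 5.80, DLX6, of the lower jaw arch, by 5.77 and BARX1, of the molar region, by 5.02. The second ALX4 probe set was not called (19.2 ± 3.9 in masseter, 18.2 ± 1.3 in biceps femoris, difference 0.978). DLX6 and BARX1 had mean percentiles under 18 in both muscles, which is near the low end of the array. PRRX2 and BARX1 had overlapping arrays. PRRX2 lost its call without masseter array 2, 3 or 5 or biceps femoris array 2 or 3 (adjusted p = 0.0581 to 0.0771), and BARX1 without masseter array 1, 3 or 5 or biceps femoris array 1 or 3 (adjusted p = 0.0719 to 0.0984).

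TBX1 and TCF21, upstream regulators of head muscle, were not called. TBX1, the T-box factor of branchial arch muscle, had percentiles of 94.3, 88.7, 92.8, 94.8 and 94.3 in masseter and 90.1, 91.5, 89.97 and 68.9 in biceps femoris. Both muscles held it near the top of the array, and the difference of 7.89 (adjusted p = 0.19) came with biceps femoris array 4 far below the others. TCF21 and DLX5 had mean percentiles between 15.4 and 18.03 in both muscles and differed by -2.63 and 1.43 points. Depending on the array left out, 5 to 7 of the 12 genes were higher and 1 lower.

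The 15 regulators of limb and trunk showed no common direction, with 5 higher and 4 lower in masseter and a median of -0.971 points. There were 3 higher without biceps femoris array 3 and 2 lower without biceps femoris array 2. MEOX2, a homeobox factor of the somites and needed for limb muscle in the mouse, had 46.3, 39.8, 52.6, 53.5 and 48.2 in masseter and 61.6, 59.8, 60.2 and 59.0 in biceps femoris, with no overlap (difference -12.1, adjusted p = 0.0055). Its relative MEOX1 went the other way, with 76.7, 53.1, 79.9, 87.8 and 80.8 in masseter and 65.2, 53.6, 44.9 and 53.3 in biceps femoris (difference 21.4, adjusted p = 0.033). The arrays of MEOX1 overlapped, and the call was lost without any array but masseter array 2 or biceps femoris array 1 (adjusted p = 0.0630 to 0.0875).

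TBX15, a T-box factor of limb and trunk that favours glycolytic fibres in the mouse, averaged 27.2 ± 2.99 in masseter and 36.7 ± 6.02 in biceps femoris (difference -9.48, adjusted p = 0.023, against 0.0516 without masseter array 1 and 0.0513 without biceps femoris array 2). TBX18 was lower by 5.09 points. PAX3, the paired-box factor of migrating limb myoblasts, was lower by 5.64 points with its highest probe set (adjusted p = 0.0572 without biceps femoris array 2) and higher by 8.35 with another. PRRX1, a marker of limb and face mesenchyme, was higher by 5.97 points, or 3.03-fold on quantile-normalized log2 values, and IRX3 and TSHZ1 were higher by 5.36 and 6.64, IRX3 not without biceps femoris array 3 (adjusted p = 0.0510). TBX5, of the forelimb, was low in both muscles (17.7 ± 2.99 in masseter, 13.5 ± 1.22 in biceps femoris, adjusted p = 0.054), and was called without masseter array 2 or 5 (adjusted p = 0.0408 and 0.0440). The hindlimb factors PITX1 and TBX4 and the limb myoblast factor LBX1 were not named on the array and are not analysed here.

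**Figure D2:**
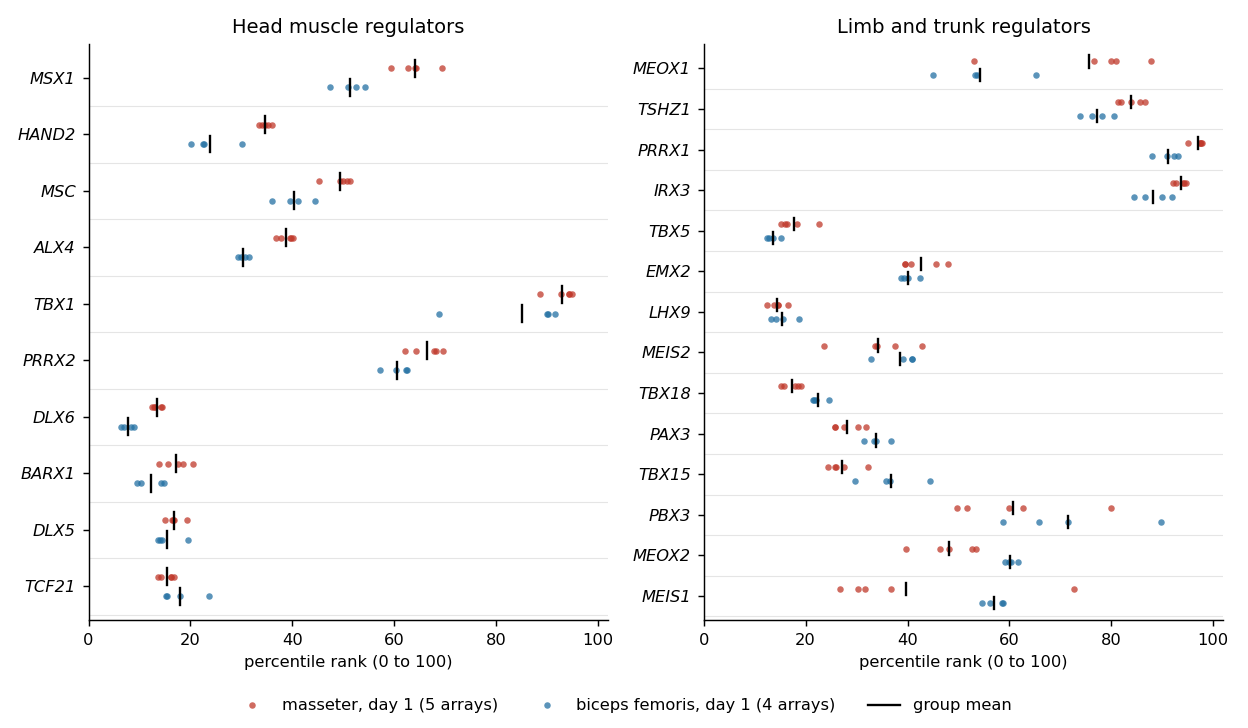
Percentile rank (0 to 100, x axes) of 10 head muscle regulators (left) and 14 limb and trunk regulators (right) on each day 1 array, with 5 masseter arrays (red) above 4 biceps femoris arrays (blue) and black bars at group means. MSX1, HAND2, MSC and ALX4 lie higher on all masseter arrays and MEOX2 lower, whereas single arrays stand apart in TBX1 and MEIS1.

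Contractile genes stood at the top of both muscles. Percentile ranks have little room there: none of the 196 genes with a mean percentile above 99 was called on ranks, against 35.7% of them on quantile-normalized log2 values. Both scales are therefore given for such genes, and the log2 calls over all genes were 42.8%, 27.2% higher and 15.5% lower. Of 14 slow-fibre genes 0 were called on ranks in either direction, and on log2 values 0 were higher and 2 lower. On ranks 1 was higher without biceps femoris array 3. MYH7, the slow myosin heavy chain, had a log2 value of 14.29 ± 0.13 in masseter and 14.34 ± 0.17 in biceps femoris (SD, n = 5 and 4). MYOZ2, a Z-disc partner of calcineurin in slow fibres, had 11.69 ± 0.45 in masseter and 13.26 ± 0.42 in biceps femoris (difference -1.57, adjusted p = 7.1e-04), with no overlap of arrays. TNNI1, slow troponin I, differed by -0.51 (adjusted p = 0.048), and a second probe set of it ranked higher in masseter (8.36 points). ATP2A2, the calcium pump of slow fibres, was not called on ranks by its highest probe set. Its other probe sets ranked lower in masseter, with differences of -17.7, -38.1 and -18.4 points (adjusted p = 0.015, 1.2e-04 and 0.014). The probe set with -38.1 had no overlap of arrays, and the others overlapped.

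Of 11 fast-fibre genes 0 were called on ranks, and 1 was higher and 0 lower on log2 values. That gene was MYOZ1, a Z-disc protein of fast fibres, with 13.80 ± 0.04 in masseter and 13.57 ± 0.10 in biceps femoris (difference 0.23, adjusted p = 0.026). TNNI2 and TNNT3, the fast troponins, differed by 0.04 and 0.10 on the log2 scale. A second TNNT3 probe set was higher in masseter, with percentiles of 94.7 ± 0.344 in masseter and 90.3 ± 0.215 in biceps femoris (1.82-fold on the log2 scale, adjusted p = 1.5e-05). In the other direction, a second probe set of ATP2A1, the calcium pump of fast fibres, was lower in masseter on log2 values (difference -0.95, adjusted p = 0.0033). On ranks that ATP2A1 probe set was not called (difference -2.02, adjusted p = 0.065). MYH4, the fast IIb myosin by its pig annotation, stood at percentiles 98.2, 99.9, 98.4, 99.5 and 99.9 in masseter and at 99.9, 99.9, 99.8 and 99.9 in biceps femoris. Its masseter arrays were the more variable, and the log2 difference of -1.15 was not called (adjusted p = 0.079). The probe sets for MYH1 and MYH2, myosins IIx and IIa, read low in both muscles (mean percentiles of 29.01 and 7.74 in masseter, 36.1 and 7.22 in biceps femoris), and MYH1 was called lower without masseter array 5 (difference -9.47, adjusted p = 0.0087). Myosin heavy chain genes have near-identical copies, and which of them a probe set reads is uncertain.

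Developmental and cardiac isoforms differed in both directions: of 18, 5 were higher and 5 lower in masseter on ranks (24.7% and 13.9% of all genes). MYH8, the perinatal myosin, had percentiles of 93.1, 93.8, 87.1, 92.4 and 94.2 in masseter and 99.03, 99.3, 98.8 and 99.6 in biceps femoris. It was 9.06-fold higher in biceps femoris on the log2 scale (difference -3.18, adjusted p = 1.5e-05), while another MYH8 probe set was higher in masseter by 9.84 points, so the perinatal form has no single direction here. TNNT2, cardiac troponin T, which immature skeletal fibres also make, had 18.4, 18.6, 14.1, 18.02 and 15.6 in masseter and 42.1, 37.8, 52.0 and 49.5 in biceps femoris (difference -28.4, adjusted p = 9.0e-05). The groups of TNNT2 were far apart. MYBPH, a thick filament protein, had 48.6, 95.9, 40.7, 42.3 and 40.8 in masseter and 90.8, 95.9, 89.2 and 98.7 in biceps femoris (difference -40.0, adjusted p = 0.017). Masseter array 2 again lay with the biceps femoris arrays.

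The other lower isoforms were TNNI3, cardiac troponin I (-16.6 points), and XIRP1, a repair protein of the myofibril (-6.37), both with overlapping arrays. TNNI3 lost its call without masseter array 1 or 2 or biceps femoris array 1 (adjusted p = 0.0553 to 0.0626), and XIRP1 without masseter array 5 or biceps femoris array 1, 2 or 4 (adjusted p = 0.0548 to 0.0856). In the other direction, MYBPC3, the cardiac myosin-binding protein, had 60.9, 61.2, 58.5, 64.2 and 59.5 in masseter and 45.8, 43.4, 48.0 and 45.7 in biceps femoris (difference 15.1, adjusted p = 5.1e-05). The natriuretic peptide genes NPPB and NPPA were higher by 8.88 and 5.04 points at mean percentiles under 50, MYH14, a non-muscle myosin, by 6.94 and MYL7, the atrial light chain, by 5.34. With all 9 arrays ACTC1, cardiac actin, was called only on the log2 scale, with 12.53 ± 0.43 in masseter and 10.98 ± 0.79 in biceps femoris (2.94-fold, adjusted p = 0.0048). On ranks it was called without biceps femoris array 3 (difference 2.87, adjusted p = 0.0198). A second ACTC1 probe set was not called, at mean percentiles of 53.3 in masseter and 53.4 in biceps femoris (log2 difference -0.0054, adjusted p = 0.98). MYH3, the embryonic myosin, averaged a percentile of 47.1 ± 7.37 in masseter and 65.4 ± 15.9 in biceps femoris and was not called (adjusted p = 0.066), but was without masseter array 2 or biceps femoris array 1 or 2 (adjusted p = 0.0423 to 0.0480). MYH6 was not named on the array.

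**Figure D3:**
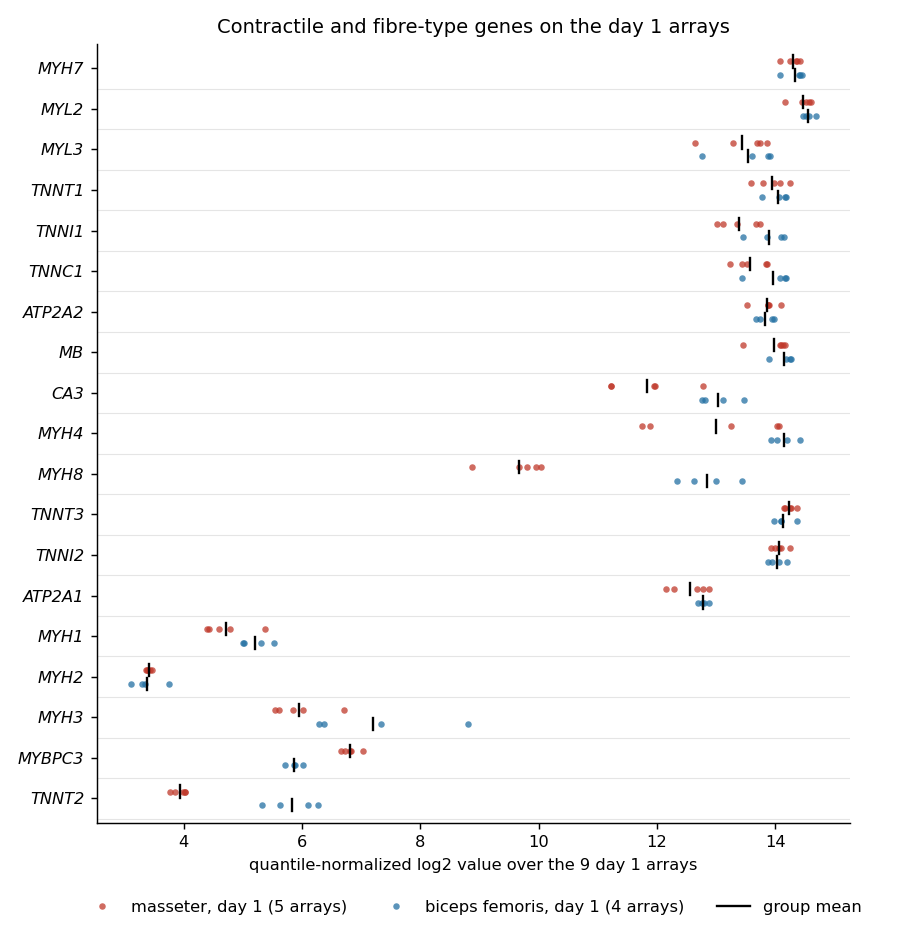
Quantile-normalized log2 values (x axis) of 19 contractile and fibre-type genes on each day 1 array, with 5 masseter arrays (red) above 4 biceps femoris arrays (blue) and black bars at group means. The slow and fast isoforms at the top of the scale overlap, whereas MYH8 and TNNT2 lie lower and MYBPC3 higher on all masseter arrays.

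Among 19 genes of calcium handling, 3 were higher and 1 lower on ranks, and 7 and 3 on log2 values. RYR3, a calcium release channel that skeletal muscle makes mostly around birth and keeps in some muscles, had 79.0, 60.0, 76.8, 78.4 and 78.0 in masseter and 32.0, 33.3, 28.7 and 26.3 in biceps femoris. This was a difference of 44.4 points (adjusted p = 5.1e-05) and 7.82-fold on the log2 scale. Of 7 probe sets of RYR3, 3 others were also higher and 1 was lower in masseter, by 18.5 points. PLN, phospholamban, the brake on the slow calcium pump, averaged 91.9 ± 2.2 in masseter and 97.4 ± 0.975 in biceps femoris (difference -5.50, adjusted p = 0.0057). CAMK2B, a calcium-dependent kinase, and STIM1, a sensor of calcium stores, were higher by 6.83 and 3.39 points, STIM1 not without biceps femoris array 1, 2 or 4 (adjusted p = 0.0508 to 0.0618). TRDN, triadin, was lower by 1.03 on the log2 scale by its highest probe set, while of its others 2 ranked higher (4.08 and 11.4 points) and 1 lower (-7.27). Of 18 scaffold genes of the sarcomere 1 was higher on ranks, UNC45B, a myosin chaperone (3.66 points, with its other probe set lower by 14.1), and on log2 values 1 was higher and 4 lower. MYOM2, an M-band protein of fast fibres, was among the lower ones, with percentiles of 77.2, 99.5, 56.8, 94.4 and 97.5 in masseter and 99.2, 99.3, 99.2 and 99.7 in biceps femoris, so its masseter values were spread widely (log2 difference -3.24, adjusted p = 0.039).

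Myogenic factors split as well: of 25, 6 were higher and 7 lower (24.7% and 13.9% of all genes), at a median of 0.418 points. HDAC9, a class II histone deacetylase that restrains MEF2, had 65.1, 66.4, 67.5, 67.8 and 67.1 in masseter and 46.1, 49.4, 49.9 and 47.8 in biceps femoris (difference 18.5, adjusted p = 4.7e-06). MEF2C itself, a factor of muscle differentiation, averaged 87.9 ± 1.6 in masseter and 77.5 ± 2.67 in biceps femoris (difference 10.4, adjusted p = 4.5e-04). CALCR, the calcitonin receptor, which quiescent satellite cells carry in the mouse, had 69.1, 53.0, 66.8, 67.8 and 60.4 in masseter and 30.4, 26.8, 36.9 and 36.4 in biceps femoris (difference 30.8), although its other probe set was lower by 5.32. All 3 of these genes were higher on every masseter array.

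SOX6, a repressor of slow-fibre genes, had 21.2, 27.3, 27.7, 23.4 and 19.97 in masseter and 36.5, 35.7, 37.3 and 50.9 in biceps femoris (difference -16.1, adjusted p = 0.0043). MYF5, the early myogenic factor, averaged 35.2 ± 4.93 in masseter and 48.4 ± 2.58 in biceps femoris (difference -13.2, adjusted p = 0.0031). EYA1 and EYA4, transcriptional coactivators of myogenesis, were lower by 11.2 and 10.8 points. SOX6, MYF5, EYA1 and EYA4 had no overlap between the muscles. MYOG, or myogenin, was lower by 5.41 points. The satellite cell markers as a group held 2 higher and 1 lower of 8 (1 higher without masseter array 1, 3 or 5 or biceps femoris array 1 or 2), with averages of 69.4 to 71.6 on masseter arrays and 64.8 to 67.4 on biceps femoris arrays.

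Energy metabolism differed gene by gene. Of 76 oxidative phosphorylation genes 2 were higher and 1 lower on ranks, and 11 were higher and 7 lower on log2 values, shares below those of all genes, with 0 lower on ranks without masseter array 5 or biceps femoris array 1 or 3 and 2 without biceps femoris array 4. NDUFV3, of complex I, averaged 78.2 ± 2.54 in masseter and 65.4 ± 3.03 in biceps femoris (difference 12.8, adjusted p = 5.0e-04), and COX6A2, the muscle form of a complex IV subunit, 78.9 ± 1.74 in masseter and 70.04 ± 4.43 in biceps femoris (difference 8.90). Of 24 genes of the citric acid cycle 1 was higher and 1 lower on ranks, and 7 and 3 on log2 values, among them CS, citrate synthase (0.66 higher). On ranks 3 were higher without masseter array 2 and 2 without masseter array 3. SUCLG2, a succinate-CoA ligase subunit, was higher by 3.64 points, and PDK3, a pyruvate dehydrogenase kinase, was lower by 3.12, a call lost without masseter array 1 or 5 or biceps femoris array 2 or 4 (adjusted p = 0.0559 to 0.0725). Another PDK3 probe set was higher by 6.86. In fatty acid uptake and oxidation, 4 of 33 genes were higher and 0 lower on ranks, below the shares of all genes (24.7% and 13.9%). On log2 values 6 were higher and 2 lower. On ranks 3 were lower without masseter array 2 and 2 without biceps femoris array 4. CD36, a fatty acid carrier, had 26.1, 26.7, 25.9, 32.1 and 35.4 in masseter and 12.1, 14.7, 14.4 and 13.5 in biceps femoris (difference 15.6, adjusted p = 4.5e-04). This was a low signal in both muscles. SLC27A1, a fatty acid transport protein, was higher by 13.4 points and CPT2, of the mitochondrial carnitine shuttle, by 11.04, all 3 without overlap.

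Glycolysis depended on the scale, with 4 of 28 genes higher and 1 lower on ranks (0 lower without any array but masseter array 2 or biceps femoris array 4, and 2 without masseter array 2), but 4 higher and 9 lower on log2 values. PKM, pyruvate kinase of muscle, had a log2 value of 12.10 ± 0.38 in masseter and 13.35 ± 0.24 in biceps femoris (difference -1.26, adjusted p = 5.7e-04), and ALDOA, aldolase, 12.88 ± 0.45 in masseter and 13.79 ± 0.14 in biceps femoris (difference -0.91, adjusted p = 0.0049). Neither was called on ranks, where both stood above percentile 98 in each muscle. HK2, the insulin-regulated hexokinase, went the other way, with 97.1, 94.5, 97.7, 98.0 and 97.8 in masseter and 92.6, 90.1, 90.6 and 80.7 in biceps femoris (difference 8.50, adjusted p = 0.015, and 3.84-fold on the log2 scale).

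Of 16 genes of glycogen handling 2 were higher and 3 lower in masseter. PHKA1, the muscle alpha subunit of phosphorylase kinase, had 70.1, 76.7, 60.6, 68.8 and 67.7 in masseter and 86.9, 85.9, 86.9 and 91.3 in biceps femoris (difference -19.0, adjusted p = 8.3e-04), and its partner PHKB was lower by 2.61 points. PRKAA2, the muscle catalytic subunit of the energy sensor AMPK, had 89.1, 92.8, 87.3, 86.8 and 85.0 in masseter and 97.4, 97.6, 97.6 and 98.5 in biceps femoris (difference -9.59, adjusted p = 9.1e-04, and 5.24-fold on the log2 scale). These were the 3 lower genes. PRKAG3, a regulatory AMPK subunit, and PHKG1, a catalytic subunit of phosphorylase kinase, were higher by 9.90 and 3.80 points, although another PRKAG3 probe set was lower by 13.1.

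Of 19 regulators of metabolism 6 were higher and 2 lower, with 3 higher without masseter array 5, and 1 lower without masseter array 4 or biceps femoris array 2, 3 or 4. TFB1M, which modifies the ribosomal RNA of mitochondria, had 64.9, 64.1, 64.2, 62.7 and 61.3 in masseter and 81.5, 84.2, 83.5 and 85.1 in biceps femoris (difference -20.1, adjusted p = 4.1e-06). Its other probe set was higher in masseter, with 52.6 ± 1.6 in masseter and 45.8 ± 2.62 in biceps femoris (difference 6.78, adjusted p = 0.0040), so TFB1M has no single direction. THRA, a thyroid hormone receptor, was higher by 5.02 points, and SIRT3, a mitochondrial deacetylase, by 10.04 with overlapping arrays. The coactivators PPARGC1A (92.7 ± 2.41 in masseter, 91.2 ± 4.63 in biceps femoris) and PPARGC1B (81.7 ± 2.26 in masseter, 80.6 ± 4.03 in biceps femoris) were not called, nor was PDK4 (98.5 ± 1.36 in masseter, 99.3 ± 0.262 in biceps femoris). MB, myoglobin, had a log2 value of 13.99 ± 0.30 in masseter and 14.15 ± 0.17 in biceps femoris and was not called. CA3, the carbonic anhydrase of slow fibres, was lower on the log2 scale, with 11.83 ± 0.65 in masseter and 13.04 ± 0.33 in biceps femoris (difference -1.21, adjusted p = 0.0091), and its arrays overlapped on ranks. Its other probe set was not called on either scale (log2 difference -0.59, adjusted p = 0.097). All 74 cytosolic ribosomal protein genes went uncalled on ranks, at averages of 99.4 to 99.5 on masseter arrays and 99.2 to 99.3 on biceps femoris arrays, while 35 were higher and 0 lower on log2 values.

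Of 44 extracellular matrix genes 15 ranked lower in masseter and 1 higher (median -3.51 points), and most were not called. On log2 values 22 were lower and 1 higher. LAMA2, the laminin chain around muscle fibres, had 86.6, 89.6, 91.6, 89.5 and 89.01 in masseter and 96.05, 96.7, 95.9 and 95.6 in biceps femoris (difference -6.79, adjusted p = 6.5e-04), and its 14 other probe sets went both ways. ASPN, asporin, averaged 79.8 ± 3.46 in masseter and 91.1 ± 2.38 in biceps femoris (difference -11.3, adjusted p = 0.0016). The count of lower genes was 8 without masseter array 5 or without biceps femoris array 2, 9 without masseter array 1 or 4 or biceps femoris array 1, and 21 without masseter array 2. At day 5 it was 2, where 10.6% of all genes were lower. Of 13 fibroblast and tendon markers, some of which are also on the matrix list (COL1A1, COL3A1, DCN, FMOD, LUM and THBS4), 4 were lower and 0 higher (2 lower without masseter array 4 or biceps femoris array 1 or 2), none lay at percentile 0, and they averaged 77.7 to 81.8 on masseter arrays and 81.4 to 85.6 on biceps femoris arrays. Their part in the matrix count was not tested.

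**Figure D4:**
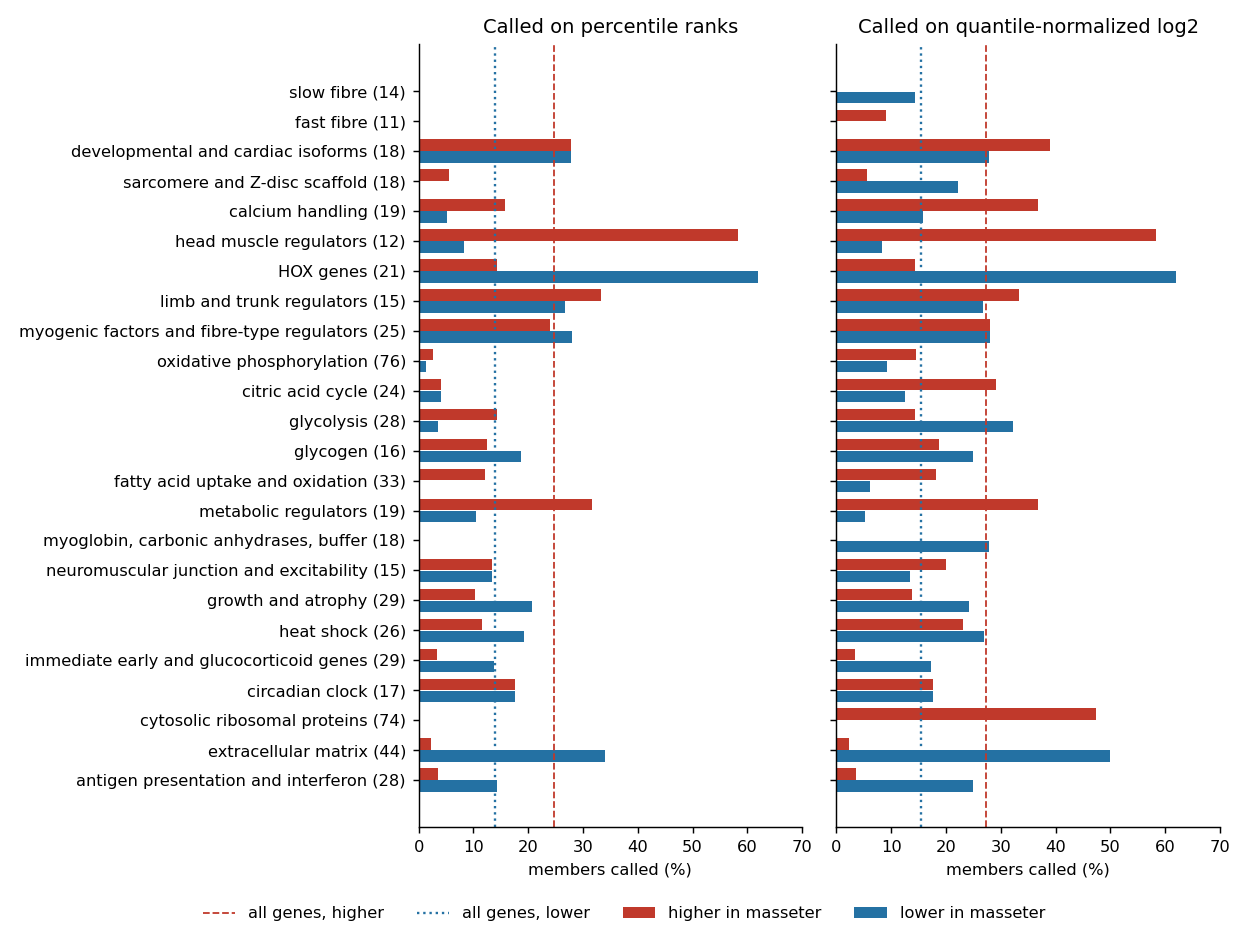
Share of the members of 24 gene lists (number of members in brackets) that were higher (red) or lower (blue) in masseter at day 1, in percent, on percentile ranks (left) and on quantile-normalized log2 values (right). The dashed and dotted lines mark all genes higher (24.7% and 27.2%) and lower (13.9% and 15.5%), and HOX genes and head muscle regulators extend past them in opposite directions on both scales.

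Other groups held a few wide differences. BTG2, an early stress-response gene, had 65.1, 64.0, 63.0, 68.2 and 57.4 in masseter and 96.6, 88.5, 84.5 and 93.4 in biceps femoris (difference -27.2, adjusted p = 1.2e-04). Among 17 clock genes, 3 were higher and 3 lower: RORA (-33.8 points), CLOCK (-11.2) and CRY1 (-6.37) were lower, and BHLHE41, PER3 and DBP were higher by 11.6, 10.4 and 7.40. A second CLOCK probe set was higher by 10.02 points (adjusted p = 0.0083) and another was not called, so CLOCK has no single direction. CRY1 lost its call without masseter array 4 or 5 or biceps femoris array 1, 2 or 4 (adjusted p = 0.0514 to 0.0883), and 5 clock genes were lower without masseter array 4. Of 29 genes of growth control 3 were higher and 6 lower, with 1 higher without masseter array 5 or biceps femoris array 2, and 3 lower without biceps femoris array 1. MTOR, the growth kinase, averaged 84.6 ± 1.41 in masseter and 73.7 ± 1.84 in biceps femoris (difference 10.9, adjusted p = 1.0e-04). KLF15, a glucocorticoid target, was lower by 13.5 points. MSTN, myostatin, the brake on muscle growth, had 71.7, 81.7, 73.1, 73.4 and 82.5 in masseter and 58.9, 56.1, 72.1 and 68.5 in biceps femoris (difference 12.6, adjusted p = 0.028), with an overlap and a call lost without masseter array 2 or 5 or biceps femoris array 1 or 2 (adjusted p = 0.0571 to 0.0755). At the synapse, NCAM1, a cell adhesion molecule that spreads over denervated fibres, was higher in masseter (50.5 ± 2.29 in masseter, 40.5 ± 3.36 in biceps femoris, adjusted p = 0.0020).

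Markers of other cells differed in both directions, to be read against 24.7% higher and 13.9% lower among all genes. Among 23 leukocyte markers 6 were higher, among them ITGB2 (13.7 points), and 6 lower, among them CD163 (-19.0) and the complement genes C1QA, C1QB and C1QC (-14.3, -10.2 and -14.4). C1QB lost its call without masseter array 1, 2 or 4 or biceps femoris array 1 or 2 (adjusted p = 0.0511 to 0.0669). PTPRC, the common leukocyte antigen, counted as higher by its highest probe set (11.3 points), but of its 6 others 1 was higher by 15.8, 4 were lower by 10.7 to 26.6 and 1 was not called, so it has no single direction. Of 18 salivary gland and epithelial markers 6 were higher and 5 lower, with averages of 42.6 to 45.5 on masseter arrays and 42.1 to 43.2 on biceps femoris arrays. LPO, the lactoperoxidase of saliva, averaged 29.97 ± 1.77 in masseter and 17.0 ± 0.537 in biceps femoris (adjusted p = 2.3e-05), a low signal in both.

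Outside these groups, PADI2, which converts arginine to citrulline in proteins, led the genes higher in masseter, with 96.3, 81.9, 96.2, 98.0 and 97.2 in masseter and 47.5, 46.5, 53.5 and 46.8 in biceps femoris (difference 45.3, adjusted p = 2.2e-05). It was 21.1-fold higher on the log2 scale, with masseter array 2 below the others. After PADI2 and RYR3 came THNSL1 (36.9 points), CHN2, a regulator of Rac signalling (36.6), RPS6KA5, a histone kinase (35.1), PRKCI, a protein kinase C of cell polarity (32.6), E2F5, a cell cycle factor (31.6), MAMDC2 (31.1), CALCR, TFCP2 (29.7), BCHE, butyrylcholinesterase (29.3), and CADPS2 (27.99). CADPS2 had 2 other probe sets that were lower by 13.7 and 10.3. E2F5 had 59.6, 57.5, 55.0, 61.7 and 58.4 in masseter and 28.01, 26.6, 25.6 and 27.3 in biceps femoris, with wide clearance between the muscles.

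Among large differences, which leave out genes with overlapping arrays such as MYBPH and HOXD8, those widest on the lower side after HOXA9 were TCF4, a helix-loop-helix factor (-48.7 points), SLC5A1, a sodium-glucose carrier (-47.1), ITGA8, an integrin of mesenchyme (-46.5, with 2 other probe sets lower and 1 higher), and CYP3A29 (-43.2), whose human homolog is named differently. HOXA3, TRGV9 (-43.1), MMRN1, of platelets and endothelium (-41.9), HOXB7, SEMA3A, a guidance signal for nerves (-39.4), PARP8 (-38.1) and SMOC1 (-36.0) followed. TCF4 had 20.8, 23.0, 27.1, 21.4 and 22.6 in masseter and 66.2, 73.3, 72.9 and 74.5 in biceps femoris. SLC5A1 had 16.2, 14.4, 24.6, 14.8 and 17.7 in masseter and 66.6, 68.7, 63.0 and 60.2 in biceps femoris. In neither gene did any masseter array come near the biceps femoris arrays. A second TCF4 probe set was higher in masseter by 4.65 points, and 2 other probe sets of TRGV9, a T-cell receptor segment, were higher by 8.29 and 8.97. Thus 3 of the 12 widest lower differences without overlapping arrays were HOX genes.

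The muscle differences were looked at again in the 9 day 5 arrays, which came from the same animals and the same array batches. At day 5, 33.2% of probe sets were called. Of all genes, 17.6% were higher and 10.6% lower in masseter at day 5. Of the 1083 genes with a large difference at day 1, 1046 had the same sign at day 5, 802 (74.1%) were called the same way and 1 the other way. A large difference in the same direction at both days was seen in 550 genes, which are 50.8% of those large at day 1 and 63.7% of the 864 large at day 5. HOXA9 averaged 6.97 in masseter and 94.2 in biceps femoris at day 5, and HOXD8 31.9 in masseter and 81.1 in biceps femoris. Of the 21 HOX genes, 14 were lower and 2 higher at day 5, and of the 12 head muscle regulators 7 were higher and 1 lower. TBX1 was called at day 5 (96.7 in masseter, 78.4 in biceps femoris, adjusted p = 0.011), but the change in its difference between the days was not (adjusted p = 0.53).

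The difference between the muscles changed from day 1 to day 5 in 24 of 23999 probe sets (0.1%), while 3051 had an unadjusted p under 0.05 (limma, all 18 arrays). HOXC9 was 1 of the 14 genes among them. It averaged 47.1 in masseter and 57.7 in biceps femoris at day 1, and 43.3 in masseter and 69.2 in biceps femoris at day 5 (change in difference -15.3, adjusted p = 0.0064). OLFM1, an extracellular protein of neurons, was another, with 34.1 in masseter and 47.1 in biceps femoris at day 1 and 87.4 in masseter and 65.3 in biceps femoris at day 5 (change 35.1, adjusted p = 0.044). By this probe set it was lower in masseter at day 1 and higher at day 5, and both differences were called. Its 2 other probe sets were higher in masseter at day 1, by 6.07 and 4.08 points, and their changes between the days were not called (adjusted p = 0.244 and 0.979), so the change of sign rests on 1 of 3 probe sets.

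**Figure D5:**
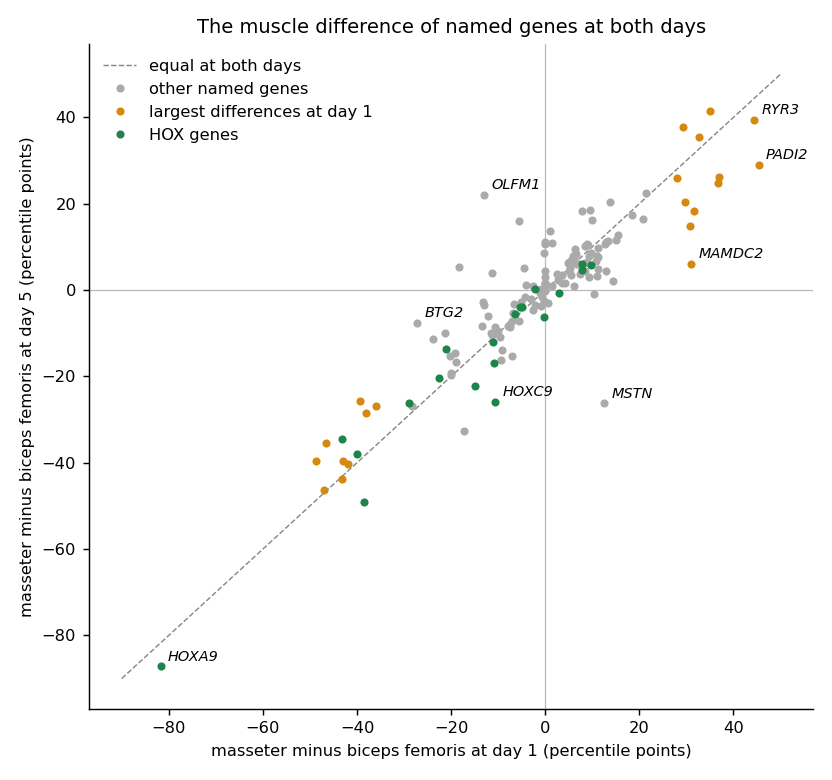
Muscle difference (masseter minus biceps femoris, percentile points) of 154 named genes at day 1 (x axis) and day 5 (y axis), with HOX genes in green, the largest day 1 differences in orange, other genes in grey and a dashed line where both days are equal. HOXA9 lies at the far lower left at both days, RYR3 and PADI2 at the upper right, and OLFM1, by 1 of its 3 probe sets, changes sign.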

How the data were processed

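The array values were used as the authors deposited them: log2 values per probe set, made with RMA per the submitters' processing notes, apart for each muscle as the values show. RMA corrects background, normalizes between arrays and summarises probes. The authors' deposited list of day 5 changes was not used. Other versions and settings are not given in the sources used here, and the number of arrays limits the precision. Values were ranked per array over 23999 probe sets after leaving out 124 control probe sets. Differences over the 9 day 1 arrays were fitted without covariates by lmFit and eBayes of limma 3.58.1 in R 4.3.3, with p-values adjusted by Benjamini-Hochberg over all probe sets. P-values measure the spread between arrays, and arrays of shared animals need not be independent. The fitting was tested on simulated data.

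Probe sets were named from the pig annotation (5050) or the deposited human homolog (14017), giving 1 symbol for 19067, several for 14 and none for 4918. The rule for named genes took the 12 widest large differences per direction, up to 3 called members per list with the smallest p, a fixed set of muscle genes and all HOX, head and limb regulators, 158 genes in all. Some genes of the lists are counted but not reported here by name. Further list members were named after their values were seen. The members and lists were chosen with earlier results of these data known. Alternatives were quantile-normalized and deposited log2 values, normal scores, a mean rank of at least 25, ranks over named genes, array weights, trended robust variances, all 18 arrays, a replicate block and each array left out in turn.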

Additional observations from a re-analysis of the deposited data

Results flagged for a closer look

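Both groups of day 1 arrays of 189 genes were checked for an array far from the others. Of these 378 groups 31 had one, and chance alone gives about 5%. Masseter array 2 accounted for many of them. It lay at percentiles 81.9 for PADI2, 60.0 for RYR3, 58.2 for RPS6KA5, 95.1 for PRRX1, 94.5 for HK2 and 99.6 for MB, each below the other masseter arrays. It also lay below them for SIRT3 (78.5). It lay at 93.5 for HOXD8, 83.6 for HOXD9, 45.2 for HOXD3, 72.7 for MEIS1, 95.9 for MYBPH, 73.96 for RORA and 92.1 for ADIPOR2, each above them. Among the other masseter arrays, array 3 was low for MYH8 (87.1) and for DMP1 (31.8), and array 4 was high for JUND (57.0).

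Biceps femoris array 4 was low for TBX1 (68.9), SUCLG2 (89.7), MYL3 (99.1), TNNC1 (99.6) and MYH14 (72.2) and high for PHKB (98.7), SOX6 (50.9) and DMP1 (28.5). Biceps femoris array 1 was high for HOXA9 (94.2), COL3A1 (99.9) and CLDN4 (61.3), array 2 was high for DLX5 (19.5), and array 3 was high for PADI2 (53.5) and low for MYF5 (44.6).

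The difference between the muscles was of another size at day 5 than at day 1 for OLFM1 (change 35.1 percentile points, adjusted p = 0.044) and HOXC9 (change -15.3, adjusted p = 0.0064), by limma's contrast of both differences over 18 arrays. Both other OLFM1 probe sets were higher in masseter at day 1 (6.07 and 4.08 points), and their changes were not called (adjusted p = 0.244 and 0.979).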

How the results depend on the processing

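Leaving out each array in turn called 8987 to 10275 probe sets at day 1 (5053 to 5847 higher, 3934 to 4428 lower in masseter, against 10382 with all arrays), 3341 to 3715 large ones (1544 to 1725 higher, 1797 to 1990 lower) and 6525 to 8005 at day 5 (3455 to 4257 higher, 3053 to 3748 lower). Ranks over the 9922 named genes called 3719 (2127 higher, 1592 lower), 1043 of them large (530 higher, 513 lower). Ranks over all probe sets called 3832 of the same genes (2453 higher, 1379 lower), 1083 of them large (611 higher, 472 lower). The shares of all genes higher and lower thus depend on which features were ranked and tested. With the replicate number as a block, 7419 were called at day 1 (4128 higher, 3291 lower), 3251 of them large, and 5185 at day 5 (2699 higher, 2486 lower). The labels do not tie replicate numbers across the muscles, and same-numbered arrays deviated with correlations of -0.107, 0.003, -0.018 and -0.045. With no known pair to compare, these correlations cannot show whether same-numbered arrays share an animal. The 4 pairs above 0.1, from 0.110 to 0.173, joined each biceps femoris array to another masseter array of a different number. Whether they mark shared animals was not tested, and no fit was made from them. Of 743 genes in the lists, 297 were called on quantile-normalized log2 values (152 higher), where ranks leave little room at the top. On deposited log2 values 65.7% of called probe sets were higher in masseter, against 56.7% on ranks. There MYH7 differed by 0.43 (adjusted p = 0.0055) and MYL2 by 0.42 (adjusted p = 0.010), higher in masseter and against their direction on ranks, and the cause was not tested. Of 2826 alternative values of the 158 named genes, 2680 kept direction and side of the threshold, 119 lost the call, 25 gained one and 2 turned. Of 124 named genes called, 92 kept the call under every alternative listed and 17 lost it without 1 array. The antigen presentation list, 4 of 28 lower, ranged from 1 to 10 lower as single arrays were left out (10 without biceps femoris array 3), and the heat shock list, 5 of 26 lower, from 2 to 5.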
